A study of Mus musculus with 19 samples.

Results

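A set of 10 genes of fat handling was followed in macrophages and inflammatory monocytes of mouse bone marrow: the lipases and lipid hydrolases Lipg, Lipe, Pnpla2 and Mgll, the triglyceride-forming enzymes Dgat1 and Dgat2, the apolipoproteins Apoe, Apoc1 and Apoc2, and the fatty acid binding protein Fabp7. They were chosen by gene symbol, and 9 of the 10 carried a value among the 20998 genes of the array table. Apoc2 was not analysed here. Lipg and Dgat2 were on the list because they had been seen to be higher in metastasis, in different cell types, so the metastasis differences of all members are a description with no p-value. Counts of members past the threshold in those contrasts are printed only beside the share of all genes past it, and nothing is read from them. The comparison of macrophages with monocytes was tested, for all members in healthy marrow and for the members other than Lipg and Dgat2 in metastasis.

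RNA was measured on 19 Affymetrix MoGene 2.0 ST arrays in 4 groups. Macrophages from healthy marrow and macrophages from metastasis were represented by 5 arrays each, Ly6C+ inflammatory monocytes from healthy marrow by 5 and those from metastasis by 4. Metastasis means marrow of female mice given 100000 MetBo2 cells into the heart at 4 weeks of age, with no drug treatment. MetBo2 is a bone-homing clone of the mouse mammary tumour line Met-1, which came from a tumour driven by the polyoma middle T oncoprotein, so the tumours derive from a single clone. The sources used here give no mouse strain, no age or injection for the healthy mice and no sort marker other than Ly6C. Whether replicate arrays were hybridised with RNA of different animals is unstated, so p-values measure only the spread between these samples, which may be technical.

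Triglyceride is made by joining a fatty acid to diacylglycerol, a step carried out by DGAT1 and DGAT2, and is stored in lipid droplets. It is taken apart in order by the enzymes encoded by Pnpla2 (adipose triglyceride lipase), Lipe (hormone-sensitive lipase) and Mgll (monoacylglycerol lipase). Outside the cell, endothelial lipase, the product of Lipg, cleaves mainly the phospholipids of high density lipoprotein, while lipoprotein lipase, the product of Lpl, cleaves triglyceride. Apolipoprotein E carries lipid out of macrophages and binds receptors of the low density lipoprotein receptor family, apolipoprotein C1 slows lipoprotein uptake and lipase action, and fatty acid binding proteins carry fatty acids in the cytosol.

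All values are log2 expression values as deposited, with array medians from 4.45 to 4.55. The labels were checked against cell type markers, as the mean log2 value of each marker list on each array. The 13 macrophage markers averaged 6.10 to 6.77 in healthy macrophages, 6.01 to 6.50 in metastasis macrophages, 6.003 to 6.161 in healthy monocytes and 6.03 to 6.28 in metastasis monocytes. In healthy marrow 5 of them, led by Vcam1, were higher in macrophages and 3 were lower, namely Adgre1 by 0.63, Csf1r by 0.51 and Cd68 by 0.69 on the log2 scale, all past the limma threshold of an adjusted p below 0.05. The 12 markers of maturing neutrophils averaged 9.54 to 10.1 and 9.98 to 10.1 in healthy and metastasis macrophages, against 7.46 to 8.11 and 7.35 to 7.84 in the monocytes, and in healthy marrow 9 of the 12 were higher in macrophages, Ltf by 4.91 and Camp by 3.71, and 1 was lower, Mmp8, with a difference of -1.27. Of the 6 markers of neutrophil precursors, 2 were higher and 4 lower in healthy macrophages, Ctsg by 3.35 and Mpo by 1.88. The 10 Ly6C-high monocyte markers averaged 9.19 to 9.76 on the macrophage arrays and 10.0 to 10.6 on the monocyte arrays. The 11 B and plasma cell markers averaged 6.34 to 6.84 in healthy and 5.40 to 6.57 in metastasis macrophages, against 4.42 to 4.67 on the monocyte arrays. The arrays labelled macrophages therefore carried most maturing neutrophil markers at a higher level, and 3 defining macrophage genes at a lower level, than the arrays labelled monocytes. Between metastasis and healthy macrophages, Jchain fell by 2.08, Mzb1 fell by 1.39 and Ebf1 fell by 0.60 among the B and plasma cell markers, Mrc1 fell by 1.34, Cd209a fell by 1.02, Car1 fell by 0.74 and Itgb3 fell by 0.56, while Vcan rose by 1.47, Prtn3 by 0.96, Fcgr1 by 0.78 and Cd8a by 0.69. In monocytes Cd209a fell by 2.17 and Itgb3 fell by 1.08, while Fcgr1 rose by 1.46 and Vcan by 1.33, and these were the markers past the limma threshold there. The part of such cells in the results below was not tested, and in bulk samples fewer cells of a type and less RNA per cell cannot be told apart.

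Along the line from the healthy mean (0) to the metastasis mean (1) over all genes, each computed without the array itself, macrophages healthy replicate 5 lay at 0.57 and macrophages metastasis replicate 2 at 0.50, while the other healthy macrophage arrays lay at 0.20 to 0.33 and the other metastasis ones at 0.74 to 0.81. Results for macrophages are therefore also given without both. These arrays were picked for lying between the groups, so leaving them out tends to widen the differences. Those fits are thus no independent check. As a guide to background, 4 Y-linked genes, which female cells lack, ranged from 2.12 to 2.87 over all arrays. Values of different genes come from different probes and are not set against each other.

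Lipg was 12.3-fold higher in metastasis than in healthy macrophages, and Dgat2 3.49-fold, Fabp7 3.10-fold, Apoc1 2.03-fold and Pnpla2 1.29-fold higher in metastasis than in healthy monocytes. Of the 9 members with a value, 1 (Lipg) was past the threshold between metastasis and healthy macrophages, against 1.23% of all genes, and the same 1 had groups that did not overlap, against 1.93%. In monocytes 3 were past it (Dgat2, Apoc1 and Fabp7), against 0.514% of all genes, and 4 had groups that did not overlap (Pnpla2 as well), against 5.41%. For the interaction, which is the difference between the metastasis effects of the cell types, 1 member (Lipg) was past it, against 0.0619% of all genes, and Dgat2, Fabp7, Apoc1 and Pnpla2 were not. Lipg and Dgat2 were listed for their metastasis differences, so these counts are a description and not a test. Between the cell types in healthy marrow 5 of 9 members passed, against 28.0% of all genes, with Dgat2, Dgat1 and Mgll higher in macrophages and Apoc1 and Fabp7 higher in monocytes, and 4 of 9 did not overlap, against 20.8%. In metastasis 5 of the 7 members tested passed, against 26.5% of all genes, with Dgat1 and Mgll higher in macrophages and Apoc1, Fabp7 and Pnpla2 higher in monocytes. These 5 did not overlap between the cell types, against 24.2% of all genes.

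**Figure D1:**
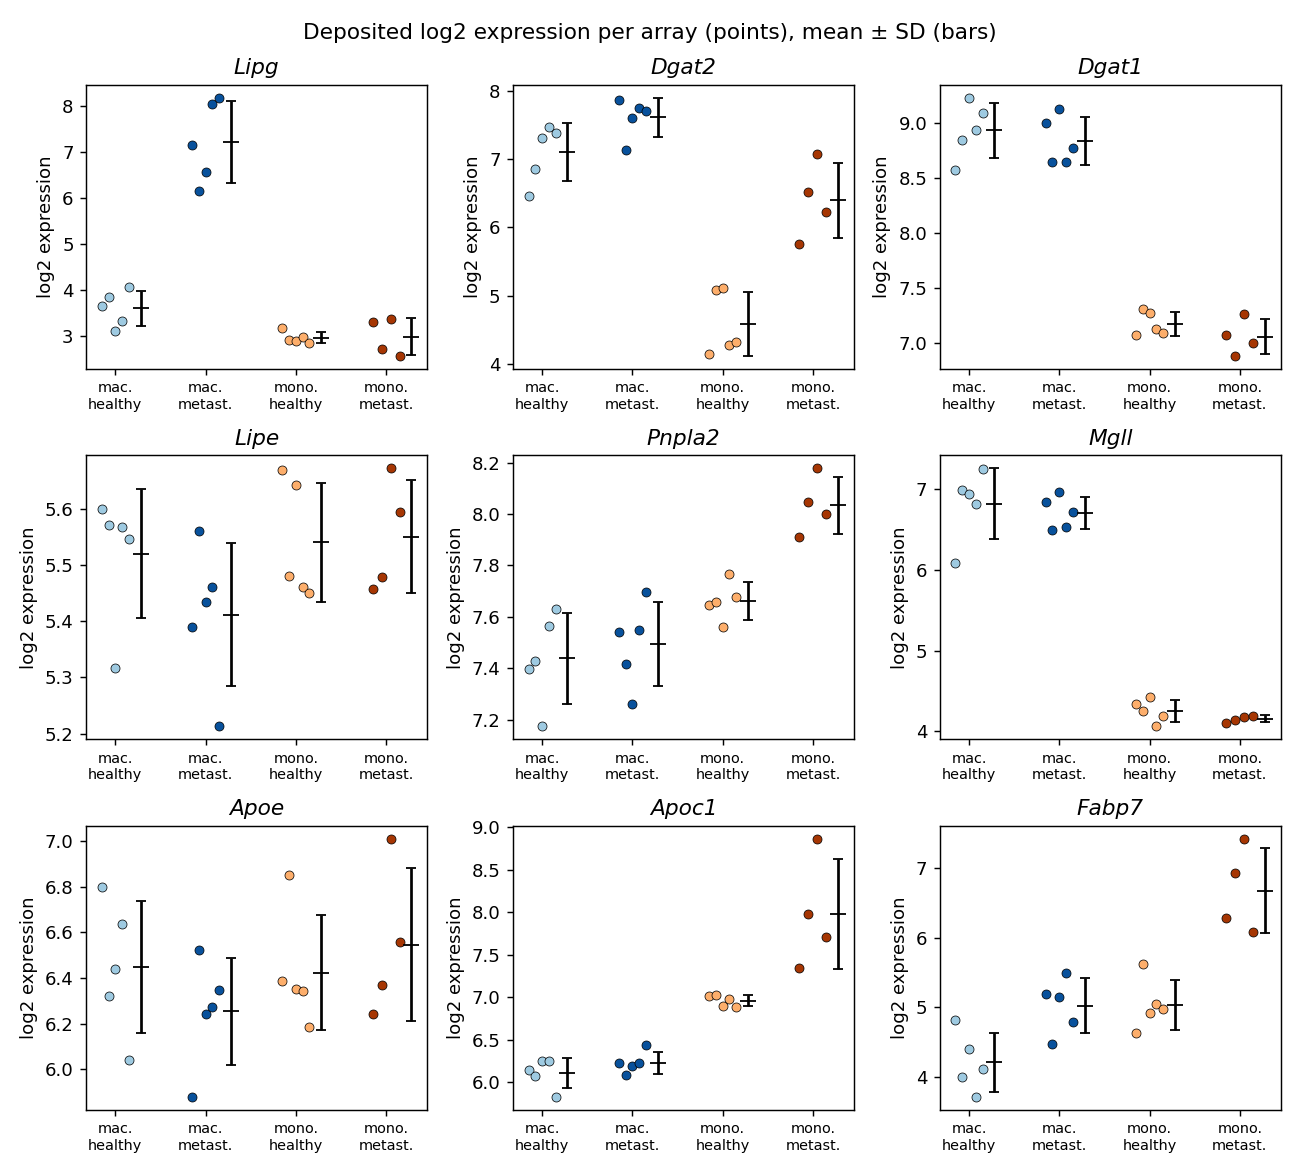
Log2 expression (vertical axis) of the 9 members on each of the 19 arrays, 1 panel per gene, with group mean and SD beside the points. Lipg lies between 6.15 and 8.19 on the metastasis macrophage arrays and at 4.08 or below on all others, whereas Dgat2, Apoc1 and Fabp7 are raised on the metastasis monocyte arrays relative to healthy monocytes.

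Lipg encodes endothelial lipase. In healthy macrophages its log2 values were 3.66, 3.85, 3.12, 3.33 and 4.08 on replicates 1 to 5, and in metastasis macrophages 7.16, 6.15, 6.57, 8.06 and 8.19. Every metastasis array lay above every healthy one. Healthy monocytes gave 3.17, 2.92, 2.91, 2.99 and 2.86, and metastasis monocytes 3.30, 2.72, 3.37 and 2.58, which overlapped. On 3 of the 9 monocyte arrays, and on none of the 10 macrophage arrays, Lipg was at or below 2.87, the highest Y-linked value.

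The mean of Lipg was 3.61 ± 0.39 (SD, n = 5) in healthy and 7.23 ± 0.89 (SD, n = 5) in metastasis macrophages, a difference of 3.62 ± 0.29 (SE) on the log2 scale, or 12.3-fold. It ranged from 3.38 to 3.89 as each macrophage array was left out in turn and was 4.01 ± 0.27 without both intermediate arrays. In monocytes the difference was 0.02 ± 0.31. The interaction, taken as the macrophage difference less the monocyte difference, was 3.60 ± 0.42. Lipg was listed for that difference. In healthy marrow, macrophages and monocytes differed by 0.64 ± 0.29 with overlapping values, which did not pass (limma adjusted p = 0.116). Beside the B and plasma cell markers given above, the T and NK cell list was also higher on macrophage than on monocyte arrays. Its 9 markers averaged 5.21 to 5.78 in healthy and 5.46 to 6.44 in metastasis macrophages, with a median metastasis difference of 0.45. Only Cd8a, a marker of cytotoxic T cells, passed, rising by 0.69, while the T cell marker Cd3d differed by -0.39 and did not pass. The 8 endothelial markers averaged 4.20 to 4.34 and 4.16 to 4.47, and none passed between metastasis and healthy macrophages. Between the cell types, 1 (Tie1) was higher in macrophages in healthy marrow, against 28.0% of all genes past the threshold. In metastasis 3 (Kdr, Tie1 and Egfl7) were higher in macrophages, against 26.5% of all genes. Their part in the Lipg difference was not tested.

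**Figure D2:**
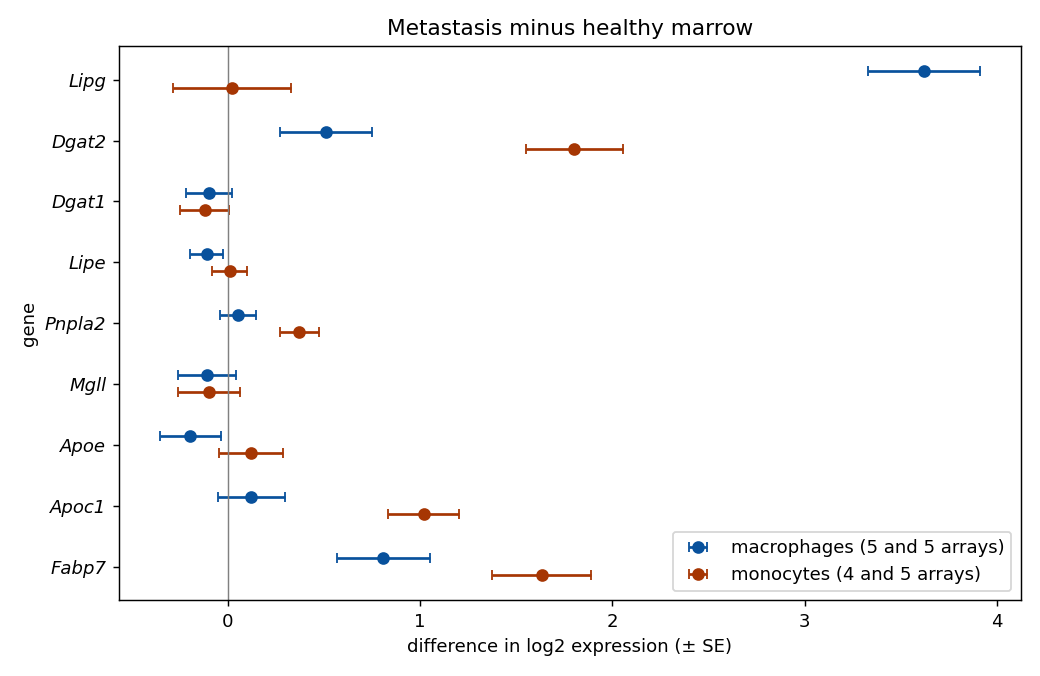
Metastasis minus healthy difference in log2 expression (horizontal axis) of the 9 members, with standard errors, in macrophages and in monocytes. Lipg differs by 3.62 in macrophages and 0.02 in monocytes, and Dgat2 by 0.51 in macrophages and 1.80 in monocytes, while Lipe, Dgat1, Mgll and Apoe lie near 0 in both.

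Dgat2 catalyses the last step of triglyceride synthesis and was higher in monocytes of metastasis. Its values were 4.14, 5.08, 5.12, 4.28 and 4.33 in healthy monocytes and 5.76, 6.51, 7.08 and 6.22 in metastasis monocytes, so all 4 metastasis arrays lay above all 5 healthy ones. The difference was 1.80 ± 0.25 (SE), or 3.49-fold, and stayed between 1.57 (without metastasis replicate 3) and 2.01 (without metastasis replicate 1). In macrophages Dgat2 was already high in healthy marrow, with values of 6.47, 6.86, 7.31, 7.47 and 7.38, and metastasis macrophages gave 7.87, 7.13, 7.60, 7.75 and 7.70. These groups overlapped and differed by 0.51 ± 0.24, or 0.70 ± 0.26 without both intermediate arrays. The effect in macrophages minus that in monocytes was -1.29 ± 0.35.

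Dgat2 was 5.68-fold higher in healthy macrophages than in healthy monocytes (log2 difference 2.51 ± 0.24, limma adjusted p = 3.07e-08), and no macrophage array overlapped a monocyte array. This test shares the healthy arrays with the contrasts that put Dgat2 on the list. Low healthy monocyte values enlarge both differences, so the test is not independent of that listing. In metastasis the gap was 1.22 ± 0.25, given without a test. Metastasis monocytes at 5.76 to 7.08 still lay below the lowest metastasis macrophage array at 7.13.

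Dgat1 encodes the other enzyme of that step, which is unrelated in sequence to the Dgat2 product. It differed between the cell types and little with metastasis. Values ran from 8.57 to 9.23 in healthy and 8.64 to 9.13 in metastasis macrophages, against 7.08 to 7.31 in healthy and 6.89 to 7.27 in metastasis monocytes. Dgat1 was 3.37-fold higher in healthy macrophages than monocytes (log2 difference 1.75 ± 0.12, limma adjusted p = 1.32e-10), and the difference in metastasis was 1.78 ± 0.13 (limma adjusted p = 3.50e-10). Metastasis and healthy values differed by -0.10 ± 0.12 in macrophages and -0.12 ± 0.13 in monocytes.

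Among the intracellular lipases, Mgll was higher in macrophages than in monocytes in both kinds of marrow. Healthy macrophages gave 6.082, 6.997, 6.944, 6.822 and 7.251 and healthy monocytes 4.34, 4.25, 4.42, 4.06 and 4.19, with no overlap. The log2 difference was 2.57 ± 0.15, or 5.92-fold (limma adjusted p = 1.16e-11). In metastasis the macrophage arrays lay at 6.50 to 6.97 and the monocyte arrays at 4.10 to 4.19, a difference of 2.56 ± 0.16 (limma adjusted p = 4.69e-11). Metastasis and healthy groups overlapped in both cell types, with differences of -0.11 ± 0.15 and -0.10 ± 0.16.

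Dgat2, Dgat1 and Mgll were each lowest among healthy macrophages on replicate 1, and Lipe, Apoe and Fabp7 were each highest there. That array also had the lowest mean of the maturing neutrophil markers in its group, 9.54, and the highest mean of the macrophage markers, 6.77. Its mean of the neutrophil precursor markers was the lowest of the group as well, 7.37. In the fit with array weights it had the lowest weight of all arrays, 0.392. In monocytes, where Dgat2 stood higher in metastasis, the array means of the maturing neutrophil markers were 7.46 to 8.11 in healthy and 7.35 to 7.84 in metastasis marrow. Cd209a and Itgb3 fell and Fcgr1 and Vcan rose on the same arrays, as given above. The part of these markers in the differences of Dgat2, Dgat1 and Mgll was not tested.

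**Figure D3:**
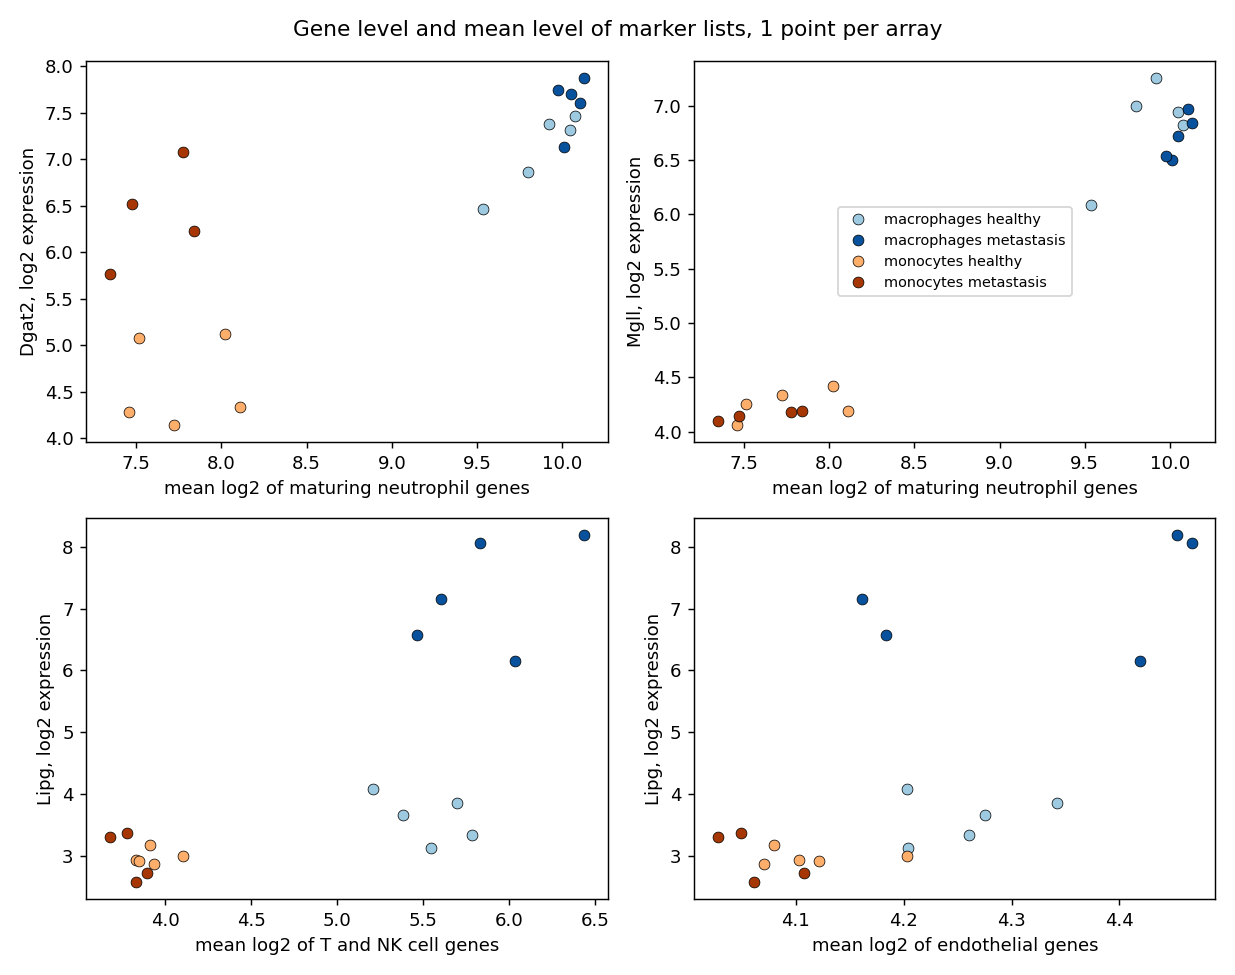
Array values of Dgat2 and Mgll against the mean log2 value of 12 maturing neutrophil markers, and of Lipg against the means of 9 T and NK cell markers and of 8 endothelial markers, coloured by group. The macrophage arrays lie at 9.54 or above on the neutrophil axis and the monocyte arrays at 8.11 or below. Metastasis monocytes lie above healthy monocytes for Dgat2, and the part of the markers in this was not tested.

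Pnpla2 encodes the lipase that starts triglyceride breakdown. Healthy monocytes gave 7.64, 7.66, 7.56, 7.77 and 7.68 and metastasis monocytes 7.910, 8.048, 8.177 and 7.998, which did not overlap. The difference was 0.37 ± 0.10, or 1.29-fold, with group SDs of 0.07 and 0.11. Macrophages ranged from 7.17 to 7.63 in healthy and 7.26 to 7.70 in metastasis marrow and differed by 0.05 ± 0.10. Pnpla2 was lower in macrophages than in monocytes of metastasis, with no overlap, by 0.54 ± 0.10 on the log2 scale (limma adjusted p = 2.39e-04). In healthy marrow the difference was -0.22 ± 0.10 and did not pass (limma adjusted p = 0.0907). It passed without macrophages healthy replicate 5 (limma adjusted p = 0.0445) but without no other single array. Without macrophages healthy replicate 3 it was -0.16 (limma adjusted p = 0.258).

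Lipe encodes hormone-sensitive lipase, which acts mainly on diacylglycerol. It lay between 5.21 and 5.67 on all 19 arrays. No pair of groups differed by more than 0.14 in its mean, and neither test between cell types passed, with -0.02 ± 0.08 in healthy marrow (limma adjusted p = 0.907) and -0.14 ± 0.09 in metastasis (limma adjusted p = 0.305). The 9 adipocyte markers gave array means of 3.45 to 3.80. Adipoq had all 4 group means within the range of the Y-linked genes, whereas Plin1, a droplet coat protein of adipocytes, averaged 4.34 to 4.71 and was higher in healthy macrophages than monocytes by 0.31 ± 0.11 (limma adjusted p = 0.0467).

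Apoc1 encodes an apolipoprotein of very low and high density lipoproteins and was higher in monocytes. Its values were 6.14, 6.07, 6.25, 6.26 and 5.83 in healthy macrophages and 7.01, 7.02, 6.90, 6.98 and 6.88 in healthy monocytes. It was lower in macrophages, with no overlap, by 0.85 ± 0.18 on the log2 scale (limma adjusted p = 6.19e-04), which is 1.80-fold higher in monocytes. In metastasis monocytes Apoc1 gave 7.35, 7.98, 8.87 and 7.71, all above every healthy monocyte array, and in metastasis macrophages 6.23, 6.08, 6.19, 6.22 and 6.44. The metastasis difference was 1.02 ± 0.19, or 2.03-fold, in monocytes and 0.12 ± 0.18 in macrophages. In monocytes it was 0.72 without replicate 3 and 1.23 without replicate 1 of the metastasis arrays. The gap between the cell types in metastasis was -1.75 ± 0.19 (limma adjusted p = 2.03e-07), 3.35-fold higher in monocytes.

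Apoe lies beside Apoc1 on chromosome 7 and showed no such pattern. Its values ran from 6.04 to 6.80 in healthy macrophages, 5.88 to 6.52 in metastasis macrophages, 6.18 to 6.85 in healthy monocytes and 6.24 to 7.01 in metastasis monocytes, and all groups overlapped. The cell types differed by 0.02 ± 0.16 in healthy marrow (limma adjusted p = 0.942) and by -0.29 ± 0.17 in metastasis (limma adjusted p = 0.236). The metastasis differences were -0.19 ± 0.16 in macrophages and 0.12 ± 0.17 in monocytes. Apoc4, which lies between Apoc2 and Apoc1 in the RefSeq annotation, averaged 4.35 to 4.49 in the 4 groups.

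Fabp7, first known from the brain as a carrier of long-chain fatty acids, had a higher mean in metastasis in both cell types, with groups that overlapped in macrophages only. Healthy monocytes gave 4.64, 5.62, 4.92, 5.05 and 4.98 and metastasis monocytes 6.27, 6.93, 7.41 and 6.08, with no overlap. The difference was 1.63 ± 0.26, or 3.10-fold, and 1.39 without metastasis replicate 3. Healthy macrophages gave 4.82, 4.00, 4.41, 3.72 and 4.12 and metastasis macrophages 5.196, 4.476, 5.152, 5.495 and 4.793. These overlapped and differed by 0.81 ± 0.24, or 0.92 ± 0.27 without both intermediate arrays. The difference between the 2 effects was -0.82 ± 0.35. Fabp7 was lower in macrophages than in monocytes by 0.83 ± 0.24 in healthy marrow, where the groups overlapped (limma adjusted p = 0.0120), and by 1.65 ± 0.26 in metastasis (limma adjusted p = 3.08e-05). The 8 glial and neural markers gave array means of 3.90 to 4.17, and none of them passed in any of these comparisons.

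**Figure D4:**
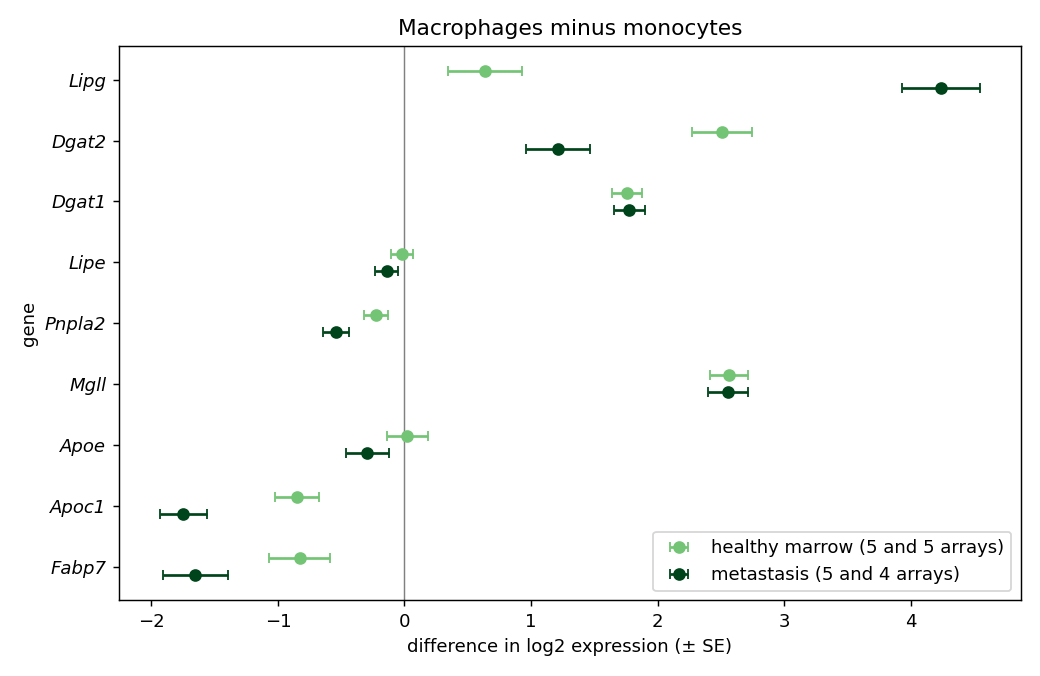
Macrophage minus monocyte difference in log2 expression (horizontal axis) of the 9 members with standard errors, in healthy marrow and in metastasis. Mgll differs by 2.57 and 2.56 and Dgat1 by 1.75 and 1.78, while Dgat2 goes from 2.51 to 1.22, Apoc1 from -0.85 to -1.75 and Fabp7 from -0.83 to -1.65.

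Fabp7 and Pnpla2 stood higher in metastasis monocytes, and Mgll was higher in macrophages in both kinds of marrow. Stretches before the start site are shown for these 3, taken from the members that had a sequence. Each is the 250 bases upstream of a RefSeq start on GRCm38.p6, plus strand, at chr10:57784673-57784922 for Fabp7, chr7:141454938-141455187 for Pnpla2 and chr6:88724162-88724411 for Mgll. Capitals mark the matches to the motifs searched on both strands.
Fabp7: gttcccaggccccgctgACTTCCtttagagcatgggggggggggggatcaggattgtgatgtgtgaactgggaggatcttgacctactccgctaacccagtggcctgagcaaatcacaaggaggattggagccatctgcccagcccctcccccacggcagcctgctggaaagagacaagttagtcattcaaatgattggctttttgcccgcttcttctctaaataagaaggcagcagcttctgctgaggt
Pnpla2: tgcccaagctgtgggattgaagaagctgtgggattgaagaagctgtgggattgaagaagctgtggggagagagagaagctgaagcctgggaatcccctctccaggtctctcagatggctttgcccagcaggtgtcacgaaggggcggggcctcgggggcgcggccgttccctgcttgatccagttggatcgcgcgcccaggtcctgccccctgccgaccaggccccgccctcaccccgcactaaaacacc
Mgll: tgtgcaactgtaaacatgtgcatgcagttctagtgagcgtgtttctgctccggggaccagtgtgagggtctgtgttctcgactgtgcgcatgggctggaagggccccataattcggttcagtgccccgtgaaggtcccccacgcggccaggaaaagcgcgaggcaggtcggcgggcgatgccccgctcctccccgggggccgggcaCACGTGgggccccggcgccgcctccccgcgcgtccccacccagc
Of 32851 such stretches over all promoters, 19.74% held the PU.1 letters GGAAGT, 16.57% the hypoxia response letters ACGTG and 12.37% the TATA letters TATAAA. The motifs of STAT (7.02%), C/EBP (9.56%), NF-kB (0.36%) and the interferon response (2.98%) were searched as well. Fabp7 held 1 match, to the PU.1 letters at position -233 from the start, on the reverse strand. The Mgll stretch shown held the hypoxia response letters on both strands, overlapping at -44 and -43. A second RefSeq start of Mgll, not shown, held these letters at -158. None of the letters occurred in the Pnpla2 stretch. A match describes the letters only and is not a bound site, and a missing match says only that the letters are not in this stretch. Sequences came from RefSeq, and 6 of the 10 members had one in the table used. Lipg, Dgat2, Dgat1 and Apoc1 had none.

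Metastasis monocyte arrays differed among themselves. Replicate 3 was the highest of the 4 for 8 of 9 members, all but Mgll, whereas over all genes it was the highest for 24.9%. Replicate 1 was the lowest for 6 of 9, against 23.4% of all genes. Over all genes, replicate 3 also lay farthest toward metastasis, at 0.88 on the scale from the healthy to the metastasis monocyte mean, and replicate 1 least far, at 0.51. The 9 members share these arrays, so this is a single observation per array.

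**Figure D5:**
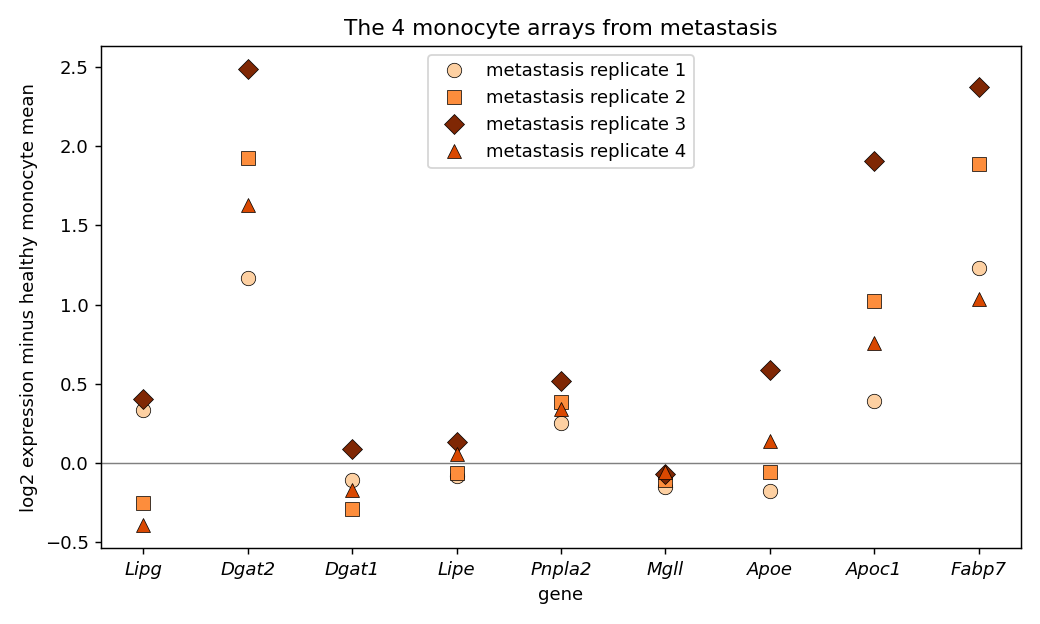
Difference of each of the 4 metastasis monocyte arrays from the healthy monocyte mean, in log2 units, for the 9 members. Replicate 3 is the highest point for 8 of the 9 genes, and for Dgat2, Apoc1, Fabp7 and Pnpla2 all 4 arrays lie above 0.

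Beyond the members, 105 genes of 5 lipid lists carried a value, and the shares that passed between the cell types were near those of all genes. In healthy marrow 18 were higher and 12 lower in macrophages (28.6% against 28.0% of all genes), and in metastasis 15 higher and 14 lower (27.6% against 26.5%). In macrophages 3 fell in metastasis and none rose (2.86% against 1.23% of all genes). At an unadjusted p below 0.05 there were 22 of the 105, against 13.6% of all genes. In monocytes none of the 105 passed in limma, against 0.514% of all genes, with 10 at an unadjusted p below 0.05, a level that 7.58% of all genes reached. For the interaction none passed, against 0.0619%, with 11 at an unadjusted p below 0.05, against 7.87% of all genes. Other fits of the monocytes called 1 each, Lipa lower with the monocyte groups alone and Gk higher with array weights. Those fits called 210 and 328 of all 20998 genes.

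Of the 16 extracellular lipases and their regulators, 3 were higher and 1 lower in healthy macrophages than in monocytes (25.0% against 28.0% of all genes), and the median difference was 0.02 against -0.01 over all genes. Lpl was higher by 1.99 ± 0.19 (limma adjusted p = 2.44e-08) and Pltp, which transfers phospholipid between lipoproteins, by 1.10 ± 0.19 (limma adjusted p = 7.04e-05). Lmf1, needed for folding of lipoprotein lipase, was lower by 0.94 ± 0.10 (limma adjusted p = 2.62e-07). Lpl fell by 1.48 ± 0.19 in metastasis macrophages (limma adjusted p = 1.35e-04), from 7.49 to 7.84 down to 5.85 to 6.68, while Lipg was higher on the same arrays. Whether the same cells carry both differences was not tested. In monocytes Lpl differed by -0.67 ± 0.20 and did not pass (limma adjusted p = 0.196).

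Of the 23 genes of triglyceride synthesis, 4 were higher and 3 lower in healthy macrophages (30.4% against 28.0% of all genes), with a median of -0.04 against -0.01 over all genes. Agpat2, which makes phosphatidic acid, was higher by 2.44 ± 0.12 (limma adjusted p = 4.09e-13), Mogat2, a monoacylglycerol acyltransferase, by 1.89 ± 0.16 (limma adjusted p = 3.06e-09) and Acsl1, which activates fatty acids, by 1.43 ± 0.14 (limma adjusted p = 5.08e-08). Agpat5 was lower by 0.76 ± 0.12 (limma adjusted p = 4.08e-05). None of the 23 passed between metastasis and healthy marrow in either cell type in limma, with 3 at an unadjusted p below 0.05 in each, against 13.6% of all genes in macrophages and 7.58% in monocytes.

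Of the 30 genes of lipid droplets and lipolysis, 8 were higher and 2 lower in healthy macrophages (33.3% against 28.0% of all genes), and 5 were higher and 6 lower in metastasis (36.7% against 26.5%). Abhd5, the activator of the Pnpla2 product, was higher by 1.93 ± 0.11 (limma adjusted p = 6.55e-12), and G0s2, its inhibitor, by 1.97 ± 0.17 (limma adjusted p = 4.42e-09). Bscl2, the droplet-forming protein seipin, was lower by 0.94 ± 0.08 (limma adjusted p = 1.16e-08). Plin2, a droplet coat protein, was lower in macrophages than in monocytes of metastasis by 0.84 ± 0.18 (limma adjusted p = 7.51e-04). Pnpla7, a lysophospholipase, fell by 0.54 ± 0.09 in metastasis macrophages (limma adjusted p = 3.67e-03), the one gene of this list to pass there, against 1.23% of all genes. In all, 12 of the 30 genes of the list stood at an unadjusted p below 0.05, against 13.6% of all genes.

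Of the 23 apolipoproteins and lipoprotein receptors, 2 were higher and 5 lower in macrophages in each kind of marrow (30.4%, against 28.0% and 26.5% of all genes). Scarb1, the receptor for high density lipoprotein, was lower by 0.63 ± 0.08 in healthy marrow (limma adjusted p = 2.07e-06), and Lrp1, a receptor for apolipoprotein E, by 1.14 ± 0.16 in metastasis (limma adjusted p = 9.10e-06). Lrp8, another such receptor, was higher by 0.75 ± 0.13 in healthy marrow (limma adjusted p = 1.28e-04). Between metastasis and healthy marrow none of the 23 passed in limma, against 1.23% of all genes in macrophages and 0.514% in monocytes. At an unadjusted p below 0.05 there were none in macrophages, against 13.6% of all genes, and 4 of the 23 in monocytes, against 7.58%.

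Of the 13 fatty acid binding and related proteins, Fabp4 and Fabp5 went opposite ways between the cell types. Fabp4, the adipocyte and macrophage form, was higher in healthy macrophages by 4.12 ± 0.32 (limma adjusted p = 1.50e-09) and in metastasis by 2.43 ± 0.34 (limma adjusted p = 8.92e-06). It fell by 2.30 ± 0.32 in metastasis macrophages (limma adjusted p = 4.87e-04), although its ranges of 5.85 to 8.18 and 4.67 to 5.93 overlapped. Fabp5, the epidermal form, was lower in macrophages by 1.86 ± 0.11 in healthy marrow (limma adjusted p = 7.24e-12) and by 1.59 ± 0.11 in metastasis (limma adjusted p = 3.21e-10). The falls of Lpl and Fabp4 and the difference of Lipg rest on the same macrophage arrays, on which the B and plasma cell, Mrc1 and Cd209a markers named above fell as well, and their part was not tested.

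The genes whose patterns lay nearest to a member were found among 17832 genes by the root mean square of the difference over the 19 arrays, after centring each gene, in log2 units. For Lipg, whose own deviation was 1.85, they were Xcl1 (0.92), Cxcl11 (0.96), Stfa1 (0.99), Cxcl9 (1.00) and Stfa3 (1.07). For Dgat2, with 1.23, they were Lbp (0.50), Rhou (0.57), Wipi1 (0.57), Hsd11b1 (0.58) and Chil1 (0.60). For Fabp7, with 0.94, they were Tarm1 (0.34), Sema6b (0.40), Jaml (0.41), Igfbp6 (0.47) and Apoc1 (0.47). All of these share the arrays, but not each contrast. The metastasis difference in monocytes was -0.24 to 1.69 for the genes nearest to Lipg, against 0.02 for Lipg. It was 0.41 to 0.98 for those nearest to Dgat2, against 1.80 for Dgat2. For those nearest to Fabp7 it was 1.02 to 1.46, against 1.63 for Fabp7.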

How the data were processed

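Gene expression was measured in 19 sorted samples in 4 groups, taken from the labels. The authors deposited 1 log2 value per gene symbol and array; oligo, an R package for such arrays, is named in the submitters' processing notes without a version, and the sources used here do not give the background correction, the normalization or the genome build. Values were used as deposited. Their number of arrays limits the precision.

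The lmFit and eBayes functions of limma 3.58.1 (R 4.3.3) fitted a mean per group over all 19 arrays, with 5 contrasts and Benjamini-Hochberg adjustment over 20998 genes; the threshold was an adjusted p of 0.05. Errors are SD over arrays for levels and moderated-fit SE for differences. The fit was tested on simulated data. No pairing or batch is given in the labels.

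The members, gene lists and marker lists were chosen with earlier results of these data known. All members are named. From each lipid list and contrast the rule took the genes that passed, at most 4 by smallest adjusted p, or, where none passed, 1 or 2 with the highest mean level; not all are described. Genes nearest to Lipg, Dgat2 and Fabp7 exclude predicted, Mir and Olfr genes. Lipa, Gk, Abhd12, Agpat4 and Apoc4 were named after their values were seen. Alternatives were the groups compared alone, intensity trend with robust hyperparameters, array weights, 11005 genes whose highest group mean exceeded the median gene mean of 4.51, quantile normalization, equal array medians, at least a 2-fold difference, each array left out, and both intermediate macrophage arrays left out.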

Additional observations from a re-analysis of the deposited data

Results flagged for a closer look

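The metastasis effect on Lipg differed between the cell types by 3.60 ± 0.42 on the log2 scale (macrophages minus monocytes). Lipg was listed for this difference, so it is a description. Among 36 combinations of member and group, 1 array stood apart from the rest of its group: macrophages healthy replicate 3 for Lipe, at 5.32 against 5.55 to 5.60 on the other 4 arrays. Chance puts about 1 in 20 groups past that limit.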

How the results depend on the processing

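No paired analysis was possible because the labels give the arrays no shared replicate numbers. Of 810 values of the members under the alternatives, 36 changed sign and 6 changed their side of the threshold. The sign changes fell on 9 differences, none larger than 0.12 on the log2 scale as reported. Between cell types in healthy marrow these were Lipe (0.0674 with quantile normalization, and -0.0425 to 0.0308 over the fits leaving out 1 array) and Apoe (-0.0636 to 0.131 over those fits). The others were Lipg, Lipe and Apoe in monocytes, Pnpla2 and Mgll in macrophages, and the interactions of Dgat1 and Mgll. Between cell types in healthy marrow, Lipg came past the threshold with the groups alone (limma adjusted p = 0.00615), and Pnpla2 without macrophages healthy replicate 5 (0.0445) and without both intermediate macrophage arrays (0.0467). In monocytes Pnpla2 came past it with the groups alone and with array weights, and Apoc1 lost it with the groups alone. Those monocyte calls concern metastasis differences, which for the members are a description only. With at least a 2-fold difference, 3 members (Dgat1, Dgat2 and Mgll) passed between cell types in healthy marrow in place of 5, against 968 of all 20998 genes. Of the 105 wider genes 10 passed in healthy marrow and 9 in metastasis, against 968 and 969 of all genes. In metastasis macrophages 5 of the wider genes were lower with dim genes left out (Abhd12 and Lipa joined), against 161 lower of 11005 genes. Without both intermediate arrays 8 were lower, against 373 of 20998 genes, and the interaction called 2 (Agpat4 and Fabp4), against 61. In monocytes the groups alone and array weights called 1 of the wider genes each, against 210 and 328 of all genes. Pnlip lost its call between cell types without monocytes healthy replicate 3 (limma adjusted p = 0.0655).

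Over all genes, 259 passed in macrophages, 65 with the groups alone, 134 with array weights, 726 without both intermediate arrays and 54 at 2-fold, with 153 to 546 as single arrays were left out. The 259 were 134 higher and 125 lower, and with equal array medians 96 and 145. In monocytes 108 passed, 210 with the groups alone, 328 with array weights and 42 at 2-fold, with 61 to 131 as arrays were left out. For the interaction 13 passed, 6 with trend and robust, 21 with array weights, 61 without both and 9 at 2-fold, with 4 to 48 as arrays were left out; its 6 higher and 7 lower became 4 and 10 with equal medians and 7 and 14 with array weights. Between cell types at 2-fold, 968 and 969 passed in place of 5886 and 5563. The intermediate macrophage arrays were picked for lying between their groups, so fits without both tend to widen the macrophage differences and raise these counts. The causes were not tested.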
